A study of Mus musculus with 6 samples.

Results

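Glutamate receptors and their auxiliary subunits were described through 36 listed genes of the 25239 gene symbols counted, taken by name. They comprise 4 AMPA receptor, 7 NMDA receptor, 5 kainate receptor, 1 delta receptor and 7 metabotropic receptor genes, 10 AMPA receptor auxiliary subunits and 2 kainate receptor auxiliary subunits. The hippocampus of 6 male C57BL/6 mice, 6 to 8 weeks old, was profiled by RNA sequencing, each mouse giving a library of its own. The 3 wild type (WT, Ube3am+/p+) mice carried both parental copies of Ube3a, and the 3 Ube3am-/p+ mice lacked a functional maternal copy and kept the paternal one, and no treatment is listed. The Ube3am-/p+ mouse is a model of Angelman syndrome, a neurodevelopmental disorder. UBE3A is an E3 ubiquitin ligase, and its paternal copy is silenced in mature neurons, whereas other cells express both copies. The maternal allele is defective in every cell, and the sample is the whole tissue.

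Glutamate is the main excitatory transmitter of the hippocampus. Ionotropic receptors are ion channels assembled from several subunits: AMPA receptors carry the fast current, NMDA receptors pass calcium and act as detectors of coincident activity in synaptic plasticity, and kainate receptors tune release and excitability. Metabotropic receptors act through G proteins. Auxiliary subunits of AMPA receptors (the transmembrane AMPA receptor regulatory proteins encoded by Cacng genes, the cornichons, the Shisa proteins and GSG1L) and of kainate receptors (the NETO proteins) set trafficking and channel kinetics.

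The ionotropic subunits are related proteins, and the stretch that codes for one conserved motif shows at how many bases their genes differ there. The motif, called SYTANLAAF after its residues, lies in the third membrane segment, which lines the channel. It was found by translating the annotated coding sequences (GENCODE M21 transcripts, GRCm38). Below, 51 bases of coding sequence are given 5′ to 3′ for 6 of the genes, with the 27 bases of the motif in capitals, each within a single exon.
Gria1 (chr11:57283559-57283609, plus strand): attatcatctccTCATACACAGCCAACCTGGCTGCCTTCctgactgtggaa
Gria2 (chr3:80702557-80702607, minus strand): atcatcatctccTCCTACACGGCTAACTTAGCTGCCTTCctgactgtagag
Gria3 (chrX:41620846-41620896, plus strand): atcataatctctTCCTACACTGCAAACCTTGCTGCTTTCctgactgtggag
Grin1 (chr2:25297187-25297237, minus strand): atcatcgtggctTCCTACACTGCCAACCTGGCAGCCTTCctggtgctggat
Grik2 (chr10:49240678-49240728, minus strand): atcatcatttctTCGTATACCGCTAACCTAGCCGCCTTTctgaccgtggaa
Grik5 (chr7:25015907-25015957, minus strand): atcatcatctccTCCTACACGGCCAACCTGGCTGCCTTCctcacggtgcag
The first 3 lines are AMPA receptor subunits, followed by the obligatory NMDA receptor subunit and by a low-affinity and a high-affinity kainate receptor subunit. The motif of Gria1 differed from those of Gria2 and Gria3 at 5 of 27 bases each and from that of Grik2 at 7 of 27. It differed from those of Grik5 and Grin1 at 2 and 3 of 27, so the number did not follow the receptor families. The residues were the same in all of them. Over the whole coding sequence, G and C made up 44.7% in Gria2, 45.5% in Gria3 and 45.3% in Grik2. The corresponding values were 51.7% in Gria1, 55.6% in Grin1 and 61.7% in Grik5. The genotype comparison below uses the GC content of the longest transcript instead. By that measure it was 36.8% in Gria2, 39.8% in Gria3, 37.9% in Grik2, 48.5% in Gria1, 59.4% in Grin1 and 61.7% in Grik5.

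The libraries held 7293272 to 11314409 reads or read pairs on genes, and the listed genes took up 0.666% to 0.724% of them. Levels are given as CPM, the counts on a gene scaled to the total gene counts of its library. The 6 libraries were distinct, since every pair differed by more than counting noise across genes. They also differed in base composition. For each library, the rank correlation (Spearman's rho) of a gene's GC content with how far that library departs from the average library was computed over all genes. It was 0.0471, -0.516 and -0.583 for WT mice 1 to 3 and 0.0603, 0.537 and 0.538 for Ube3am-/p+ mice 1 to 3. For this reason fold changes are given as counted and after removing, library by library, what followed GC content and transcript length (corrected). The targeted gene, Ube3a, was measured at 104, 141 and 151 CPM in WT mice 1, 2 and 3 and at 96.8, 82.9 and 80.6 CPM in Ube3am-/p+ mice 1, 2 and 3. It was lower in all 3 Ube3am-/p+ mice than in any WT mouse, with a log2 fold change of -0.58 (SE 0.12, edgeR adjusted p = 0.0363). The call was lost when WT mouse 2 or 3 or Ube3am-/p+ mouse 2 or 3 was left out, with log2 fold changes of -0.54 to -0.48, and after the correction the log2 fold change was -0.19 (edgeR adjusted p = 0.255). Its exons overlap those of Snhg14 on the opposite strand over 8.74% of their bases.

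Of the 36 genes, 35 had counts and all 35 passed the filter on low counts. Grm6, the metabotropic receptor of retinal bipolar cells, had 0 counts in all 6 libraries, which allows a level of up to 0.265 to 0.411 CPM per library (3 counts, counting error only). Levels of different genes were compared as CPM per kb of exon. The highest in each family were Gria1, Grin1, Grik5, Grid1, Grm5, Cnih2 and Neto1, and the plot of levels by family shows every mouse.

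**Figure D1:**
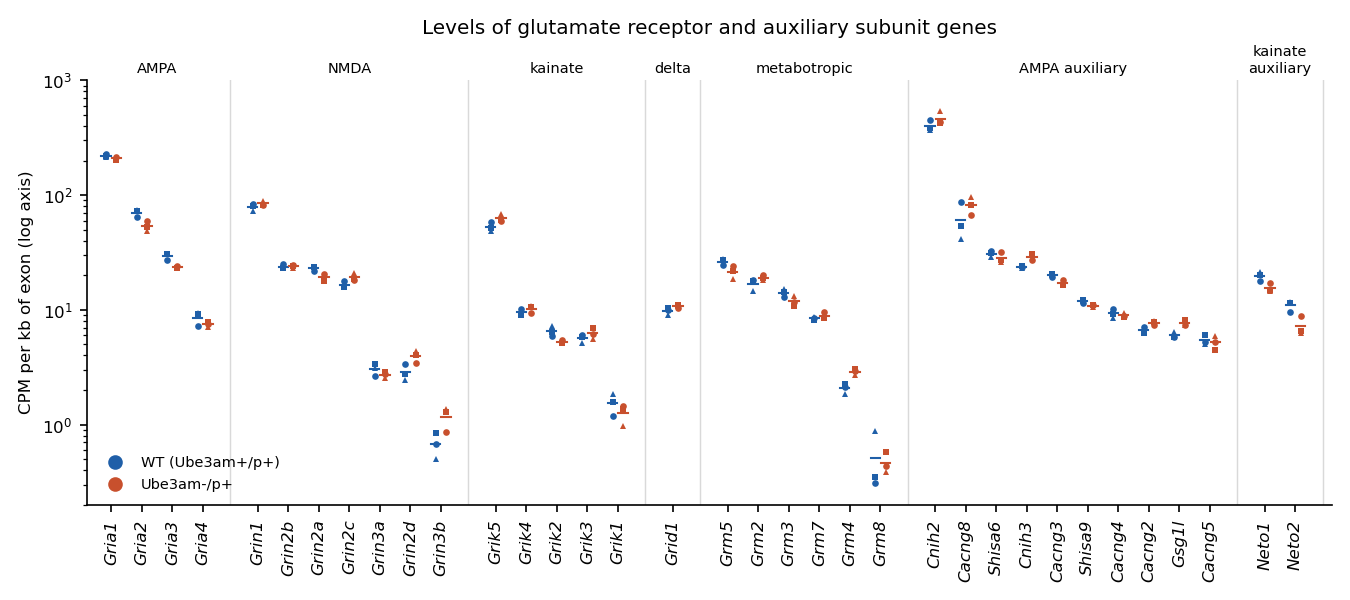
Level of each listed gene with counts, in CPM per kb of union exon length on a log axis, ordered within each family by the WT mean. Points are mice (circle, square and triangle for mice 1, 2 and 3), blue for WT and orange for Ube3am-/p+, and short lines are group means; Cnih2 is the highest at 401 and Grm8 the lowest at 0.510 in WT mice.

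Among AMPA receptor subunits, Gria1 reached 220.4 ± 6.39 CPM per kb in WT mice (SD, n = 3). Gria2, whose edited subunit keeps the channel impermeable to calcium, followed at 70.4 ± 5.09, Gria3 at 29.4 ± 2.18 and Gria4 at 8.56 ± 1.19 CPM per kb (SD, n = 3). No neighbours in this order overlapped between mice, in either genotype. Gria1 thus made up 67.0% ± 2.34 of the AMPA receptor sum and Gria2 21.4% ± 1.42 in WT mice (SD, n = 3). With coding length in place of exon length these shares were 47.5% and 40.02%, so that the order was the same and the distance between the genes was not.

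NMDA receptor mRNA was led by Grin1, the subunit that every NMDA receptor contains, at 78.9 ± 5.85 CPM per kb in WT mice (SD, n = 3). The glutamate-binding subunits Grin2b and Grin2a stood at 23.8 ± 1.07 and 23.2 ± 1.03 CPM per kb (SD, n = 3) and overlapped between the WT mice. Their order depended on the length used: with coding length Grin2b made up 52.1% and Grin2a 37.2% of the 4 Grin2 genes in WT mice, and with the longest transcript 33.4% and 38.7%, without overlap in either case. Grin2c, which is best known from cerebellar granule cells, came next at 16.5 ± 1.13 CPM per kb (SD, n = 3), which is 24.8% of the sum of the 4 Grin2 genes, or 8.77% with coding length. Grin3a, Grin2d and Grin3b were the lowest, at 3.05 ± 0.346, 2.87 ± 0.483 and 0.673 ± 0.170 CPM per kb (SD, n = 3), and Grin3a and Grin2d overlapped. This overlap rests on exon lengths of 12275 bp in Grin3a and 6658 bp in Grin2d. With coding lengths of 3405 and 3969 bp, Grin3a was above Grin2d in the WT mice without overlap.

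In the kainate receptor family Grik5, a high-affinity subunit that needs a low-affinity partner to form a channel, was at 52.97 ± 5.28 CPM per kb and made up 69.4% ± 2.28 of the family sum in WT mice (SD, n = 3). The other high-affinity subunit, Grik4, was at 9.56 ± 0.543, and the low-affinity subunits Grik2, Grik3 and Grik1 at 6.54 ± 0.713, 5.67 ± 0.501 and 1.53 ± 0.323 CPM per kb (SD, n = 3). Only Grik2 and Grik3 overlapped among these neighbours. This order depended on the length used, since with coding length Grik2 made up 19.1% and Grik4 11.9% of the family sum in WT mice, and Grik5 55.8%. Grid1, a delta receptor that organises synapses by binding cerebellins, had 9.76 ± 0.637 CPM per kb (SD, n = 3).

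Of the metabotropic receptors listed, Grm5, which couples to phospholipase C, was highest at 26.3 ± 1.60 CPM per kb in WT mice (SD, n = 3). The receptors that lower cyclic AMP followed, with Grm2 at 16.8 ± 1.88 and Grm3 at 14.1 ± 1.17 CPM per kb, which overlapped, and then Grm7 at 8.45 ± 0.284, Grm4 at 2.07 ± 0.193 and Grm8 at 0.510 ± 0.314 (SD, n = 3). With coding length Grm2 and Grm3 did not overlap, at 21.4% and 11.1% of the sum in WT mice, and Grm7 was at 12.2%. Grm8 had 261 counts in all libraries together.

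Auxiliary subunits of AMPA receptors included the gene with the highest level of all. The cornichon Cnih2 was at 401 ± 45.7 CPM per kb in WT mice, above Gria1, and its relative Cnih3 at 23.6 ± 0.667 (SD, n = 3). Cacng8, the regulatory protein typical of the hippocampus, had 60.5 ± 23.6 CPM per kb and the widest spread between WT mice relative to its mean, apart from Grm8. Cacng3, Cacng4, Cacng2 (stargazin) and Cacng5 were at 19.95 ± 0.473, 9.29 ± 0.872, 6.68 ± 0.347 and 5.43 ± 0.486 CPM per kb, Shisa6 and Shisa9 at 30.9 ± 1.64 and 11.9 ± 0.373, and Gsg1l at 6.06 ± 0.355 (SD, n = 3). Gsg1l overlapped with both of its neighbours, Cacng2 and Cacng5. These levels rest on exon length, and shares by coding length were not computed for the auxiliary subunits. Coding and exon lengths were 1269 and 2345 bp in Cacng8, 1575 and 7449 bp in Shisa6, and 561 and 2751 bp in Cnih3. The order of these 3 genes therefore depends on the length used. The same holds for Cacng2 and Cacng4, with coding lengths of 969 and 981 bp and exon lengths of 5510 and 3575 bp. By the WT means it also holds for Gsg1l and Cacng5, with coding lengths of 966 and 825 bp and exon lengths of 3923 and 3834 bp. The kainate receptor auxiliary subunits Neto1 and Neto2 stood at 19.7 ± 1.75 and 10.97 ± 1.15 CPM per kb (SD, n = 3).

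The genotypes were then compared across all 14445 genes tested, and the listed genes were read from that fit. Calls required a Benjamini-Hochberg adjusted p under 0.05 together with a fold change of more than 1.2. In Ube3am-/p+ mice the kainate receptor auxiliary subunit Neto2 and the AMPA receptor subunit Gria2 were called, both lower, and none was called higher. That is 2 of 35, where 2.01% of all genes tested were called. At an unadjusted p below 0.05 there were 17 of 35, of which 8 were lower and 9 higher, beside 24.6% of all genes (12.4% lower and 12.2% higher). The mice of both genotypes did not overlap in 19 of 35 listed genes and in 24.8% of all genes. The median log2 fold change of the 35 was -0.04 and that of all genes 0.0025. After the correction for GC content and length, 0 of 35 were called beside 0.542% of all genes, 5 of 35 had an unadjusted p below 0.05 beside 14.6%, and 10 of 35 did not overlap beside 17.8%. DESeq2 without this correction called 5 of 35, beside 4.94% of the 19291 genes with counts, the additional genes being Gria3, Neto1 and Cnih3. DESeq2 gave no adjusted p to Grin3b, Grik1 and Grm8. Genes without an adjusted p count as not called, among the 35 and in the share of all genes. By edgeR, 7 of 35 were called without the filter on low counts, beside 6.10% of all genes, 3 with at least 10 counts in every library, beside 2.87%, and 1 with upper-quartile scaling, beside 1.88%. At an unadjusted p below 0.05 with the fold threshold there were 11 of 35, beside 19.6% of all genes. The calls of Neto2 and Gria2 were lost, with 0 of 35 genes called, when WT mouse 2, WT mouse 3, Ube3am-/p+ mouse 2 or Ube3am-/p+ mouse 3 was left out, whereas 14 were called without WT mouse 1, beside 17.6% of all genes, and 8 without Ube3am-/p+ mouse 1, beside 12.5%. In those 4 omissions the log2 fold change stayed at -0.55 to -0.51 for Neto2 and -0.36 to -0.31 for Gria2. In whole tissue, fewer cells of a type and less RNA per cell cannot be told apart, and the p-values rest on 3 mice per genotype.

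**Figure D2:**
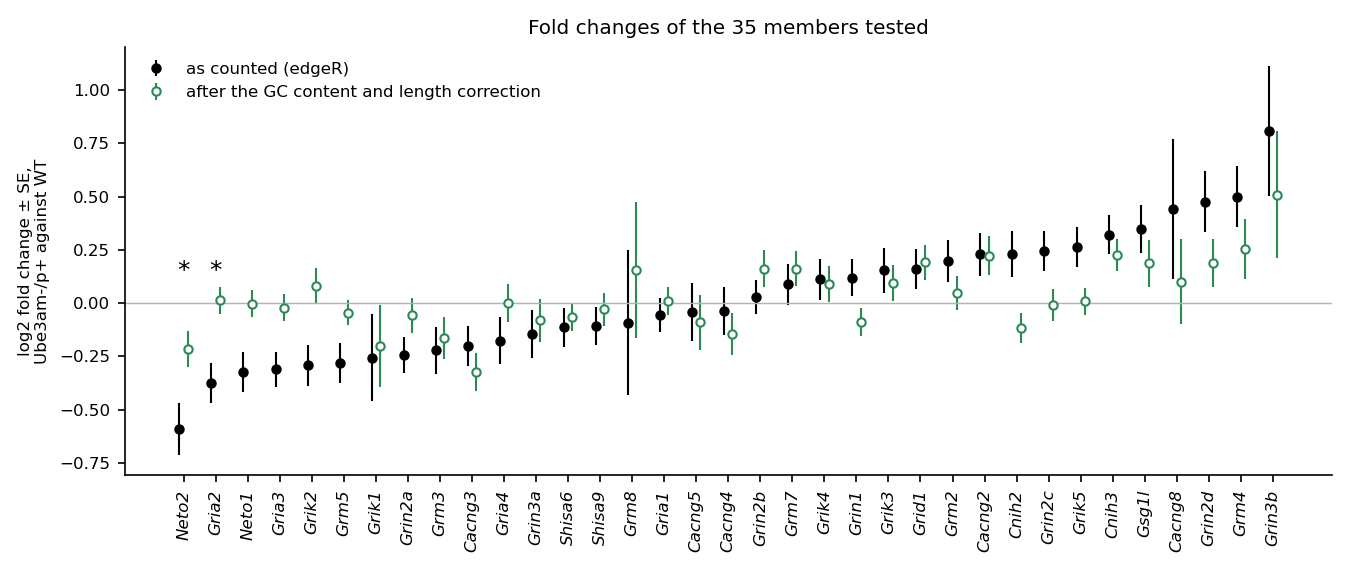
Log2 fold change of Ube3am-/p+ against WT mice for the 35 genes tested, with bars for the SE of the fit. Black points are as counted, green open points are after the correction for GC content and length, and asterisks mark the 2 called genes, Neto2 and Gria2, at -0.59 and -0.38 as counted and -0.22 and 0.01 after the correction.

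Neto2 (chromosome 8 of GRCm38, 85636588 to 85700924) encodes an auxiliary subunit that slows the desensitisation of kainate receptors. It was measured at 59.1, 70.8 and 71.8 CPM in WT mice 1, 2 and 3 and 53.8, 40.2 and 38.7 CPM in Ube3am-/p+ mice 1, 2 and 3. Each Ube3am-/p+ mouse was below each WT mouse, and mouse 1 of each genotype lay nearest to the other genotype. Its log2 fold change was -0.59 (SE 0.12, edgeR adjusted p = 0.0362). Corrected for GC content and length, it was -0.22 (SE 0.08, edgeR adjusted p = 0.218), and the groups still did not overlap. Neto1, which also associates with NMDA receptors, was at 148, 168 and 177 CPM in WT mice 1, 2 and 3 and 142, 125 and 122 CPM in Ube3am-/p+ mice 1, 2 and 3. It was likewise lower without overlap, by a log2 fold change of -0.32 (SE 0.09, edgeR adjusted p = 0.0632), which did not pass the threshold, and -0.0023 once corrected. The sum of both genes was 30.7 ± 2.88 CPM per kb in WT and 22.8 ± 2.62 in Ube3am-/p+ mice (SD, n = 3), and 27.003 ± 0.0626 and 25.7 ± 0.561 CPM per kb with corrected counts.

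All 4 AMPA receptor subunits had a negative log2 fold change as counted, and 1 of them was called, beside 2.01% of all genes. After the correction 3 of the 4 were positive and 0 were called, beside 0.542%. Gria2 (chromosome 3 of GRCm38, 80681450 to 80802835), whose coding sequence had the lowest GC content of the 6 genes printed above, was at 1005, 1123 and 1155 CPM in WT mice 1, 2 and 3 and 930.3, 819 and 749.7 CPM in Ube3am-/p+ mice 1, 2 and 3. No mice of the genotypes overlapped, and mouse 1 of each genotype was again nearest to the other genotype. The log2 fold change was -0.38 (SE 0.09, edgeR adjusted p = 0.0486), and 0.01 (SE 0.06, edgeR adjusted p = 0.954) after the correction. Gria3 was at 266, 303 and 303 CPM in WT mice 1, 2 and 3 and 235, 227 and 230.1 CPM in Ube3am-/p+ mice 1, 2 and 3. These also did not overlap, with a log2 fold change of -0.31 (SE 0.08, edgeR adjusted p = 0.0539), just outside the threshold, and of -0.02 after the correction. Gria1, the most abundant subunit, had 1371, 1331 and 1293 CPM in WT mice 1, 2 and 3 and 1309, 1223 and 1266 CPM in Ube3am-/p+ mice 1, 2 and 3. These ranges overlapped, and the log2 fold change was -0.06 (SE 0.08, edgeR adjusted p = 0.704), or 0.01 corrected. Gria4 had a log2 fold change of -0.18 (SE 0.11, edgeR adjusted p = 0.329), with overlapping mice, and of 0.0020 after the correction. Summed per length, AMPA receptor mRNA was 329 ± 3.45 CPM per kb in WT and 294 ± 12.1 in Ube3am-/p+ mice (SD, n = 3), without overlap between mice. With corrected counts the sums were 309.8 ± 11.3 and 311 ± 12.8 CPM per kb (SD, n = 3) and overlapped.

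**Figure D3:**
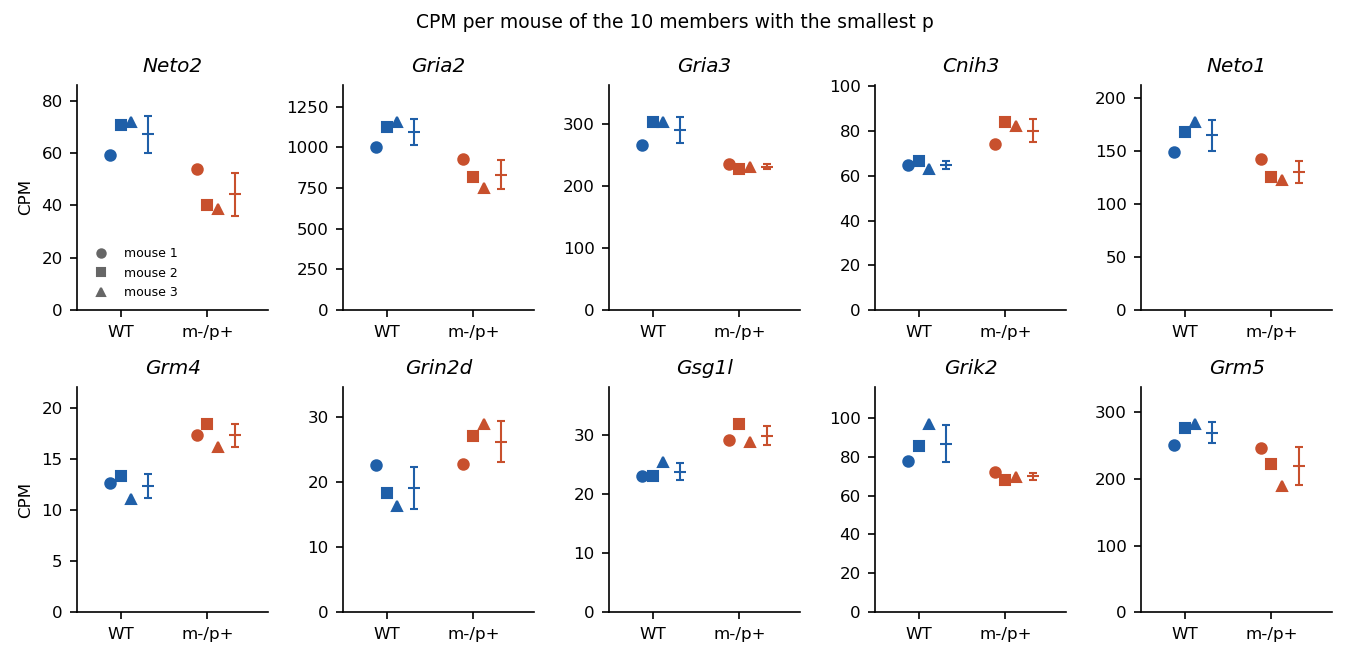
CPM in each mouse for the 10 listed genes with the smallest p, on linear axes that start at 0. Circles, squares and triangles are mice 1, 2 and 3, and the bars beside them the mean ± SD (n = 3). The genotypes do not overlap in any of the 10 genes, but these were chosen by their p in the same mice, so this is no added support. Over all genes tested, 24.8% do not overlap. In Neto2, Gria2, Gria3, Neto1, Grin2d, Grik2 and Grm5 mouse 1 of each genotype lies nearest to the other genotype.

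The share of Gria2 in AMPA receptor mRNA was 19.9%, 21.7% and 22.6% for WT mice 1 to 3, against 19.4%, 18.4% and 16.7% for Ube3am-/p+ mice 1 to 3. The means differed by -3.21 percentage points (exact permutation test, two-sided p = 0.1, adjusted p = 0.133 over 4 shares), and 0.1 is the smallest p that 3 against 3 mice can give. With the corrected counts the difference was 0.0913 points. Gria1 made up 67.0% in WT and 71.3% in Ube3am-/p+ mice as counted, and 69.2% and 69.3% with corrected counts.

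Of the 7 NMDA receptor genes, 0 were called by edgeR or DESeq2, beside 2.01% and 4.94% of all genes. DESeq2 gave Grin3b no adjusted p. An unadjusted p below 0.05 was seen in 4 as counted, beside 24.6% of all genes, and in 0 after the correction, beside 14.6%. Grin1 had 812, 780.3 and 702 CPM in WT mice 1, 2 and 3 and 793, 803 and 867 CPM in Ube3am-/p+ mice 1, 2 and 3, overlapping ranges with a log2 fold change of 0.12 (SE 0.09, edgeR adjusted p = 0.412). Corrected, the sign was the opposite, at -0.09 (SE 0.06, edgeR adjusted p = 0.567), with the Ube3am-/p+ mice below the WT mice without overlap. Exons on the opposite strand overlap 13.5% of the exon bases of Grin1, 9.66% of those of Grin2d and 9.60% of those of Grm2, and the strand setting of the counts is not given in the sources used here. Grin2d, found mainly in interneurons, was at 22.6, 18.3 and 16.3 CPM in WT mice 1, 2 and 3 and 22.8, 27.05 and 28.9 CPM in Ube3am-/p+ mice 1, 2 and 3. The genotypes were separated only by the gap between WT mouse 1 and Ube3am-/p+ mouse 1, and the log2 fold change was 0.48 (SE 0.14, edgeR adjusted p = 0.0713), or 0.19 corrected. Grin2a, Grin2c and Grin3b also had an unadjusted p below 0.05, with log2 fold changes of -0.24, 0.24 and 0.81 and edgeR adjusted p-values of 0.0967, 0.134 and 0.123. Corrected, these log2 fold changes were -0.06, -0.01 and 0.51. Grin3b is uncertain, because it had 175 counts in all and 32.1% of its exon bases overlap Tmem259 on the opposite strand. Grin2b and Grin3a had log2 fold changes of 0.03 and -0.15 with overlapping mice.

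Grin2b made up 36.6%, 35.6% and 35.2% of the mRNA of the 4 Grin2 genes in WT mice 1, 2 and 3 and 36.9%, 37.3% and 33.9% in Ube3am-/p+ mice 1, 2 and 3. The difference of 0.199 percentage points was within the spread of the mice (exact permutation test, two-sided p = 0.9, adjusted p = 0.9 over 4 shares). As counted, the share of Grin2a was 35.03% in WT and 29.1% in Ube3am-/p+ mice, that of Grin2c 24.8% and 28.97%, and that of Grin2d 4.31% and 5.93%. With corrected counts the differences were -2.38 points for Grin2a and 0.503 for Grin2d, and that of Grin2c had the opposite sign, at -0.960 points.

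Kainate receptor subunits had log2 fold changes of both signs, and 0 of 5 were called by edgeR or DESeq2, beside 2.01% and 4.94% of all genes. DESeq2 gave Grik1 no adjusted p. An unadjusted p below 0.05 was seen in 2 as counted, beside 24.6% of all genes, and in 0 after the correction, beside 14.6%. Grik2 was at 77.7, 85.5 and 96.5 CPM in WT mice 1, 2 and 3 and 71.9, 67.97 and 69.6 CPM in Ube3am-/p+ mice 1, 2 and 3. The genotypes did not overlap, with a log2 fold change of -0.29 (SE 0.10, edgeR adjusted p = 0.0866), which had the opposite sign, 0.08, after the correction. Grik5 was at 304, 266 and 251 CPM in WT mice 1, 2 and 3 and 306, 316 and 351 CPM in Ube3am-/p+ mice 1, 2 and 3. It did not overlap either, although WT mouse 1 and Ube3am-/p+ mouse 1 were nearly equal, and its log2 fold change was 0.26 (SE 0.09, edgeR adjusted p = 0.105), or 0.01 corrected. Grik1, Grik3 and Grik4 overlapped between genotypes, with log2 fold changes of -0.26, 0.15 and 0.11. The share of Grik5 in the family was 71.7%, 69.3% and 67.1% for WT mice 1 to 3, against 72.5%, 71.9% and 75.1% for Ube3am-/p+ mice 1 to 3. This was a difference of 3.81 percentage points (exact permutation test, two-sided p = 0.1, adjusted p = 0.133 over 4 shares), and of -0.892 points with corrected counts. Grid1 was at 59.1, 61.4 and 54.02 CPM in WT mice 1, 2 and 3 and 61.8, 66.1 and 64.8 CPM in Ube3am-/p+ mice 1, 2 and 3. It was higher without overlap, with a log2 fold change of 0.16 (SE 0.09, edgeR adjusted p = 0.301) and of 0.19 corrected.

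**Figure D4:**
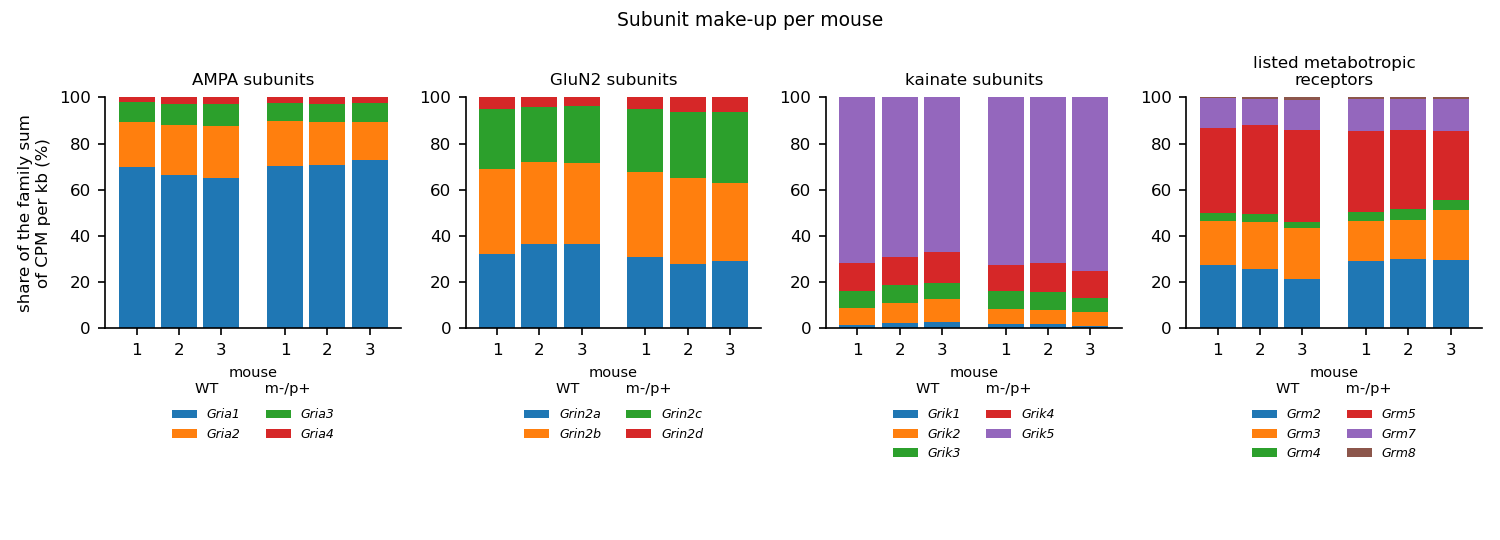
Share of each gene in the sum of CPM per kb of its family in every mouse, in percent, for AMPA subunits, the 4 Grin2 (GluN2) subunits, kainate subunits and the listed metabotropic receptors. The first 3 bars of each panel are WT mice and the last 3 Ube3am-/p+ mice; the Gria2 share is 19.9% to 22.6% in WT and 16.7% to 19.4% in Ube3am-/p+ mice.

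Of the 6 metabotropic receptors tested, 0 were called by edgeR or DESeq2, beside 2.01% and 4.94% of all genes. DESeq2 gave Grm8 no adjusted p. An unadjusted p below 0.05 was seen in 2 as counted, beside 24.6% of all genes, and in 0 after the correction, beside 14.6%. Grm5 was at 251, 276 and 282 CPM in WT mice 1, 2 and 3 and 246, 223 and 189.9 CPM in Ube3am-/p+ mice 1, 2 and 3. The genotypes did not overlap, by a narrow gap between WT mouse 1 and Ube3am-/p+ mouse 1, and the log2 fold change was -0.28 (SE 0.09, edgeR adjusted p = 0.0914), or -0.04 corrected. Grm4, a presynaptic receptor, was at 12.6, 13.4 and 11.1 CPM in WT mice 1, 2 and 3 and 17.4, 18.4 and 16.2 CPM in Ube3am-/p+ mice 1, 2 and 3. It was higher in each Ube3am-/p+ mouse, mouse 1 included, with a log2 fold change of 0.50 (SE 0.14, edgeR adjusted p = 0.0632) and of 0.25 corrected. Grm2, Grm3, Grm7 and Grm8 had log2 fold changes of 0.20, -0.22, 0.09 and -0.09, all with an unadjusted p above 0.05. Grm5 made up 38.5% ± 1.52 of the listed metabotropic receptors in WT and 33.0% ± 2.48 in Ube3am-/p+ mice (SD, n = 3). The difference was -5.50 percentage points (exact permutation test, two-sided p = 0.1, adjusted p = 0.133 over 4 shares), and -1.05 points with corrected counts.

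Among the 10 AMPA receptor auxiliary subunits, 0 were called by edgeR, beside 2.01% of all genes, and 1, Cnih3, by DESeq2, beside 4.94%. Of the 10, 5 had an unadjusted p below 0.05, 1 lower and 4 higher, beside 24.6% of all genes (12.4% lower and 12.2% higher). After the correction 3 did, beside 14.6% of all genes. Cnih3 was at 64.9, 66.7 and 63.1 CPM in WT mice 1, 2 and 3 and 74.2, 83.96 and 82.1 CPM in Ube3am-/p+ mice 1, 2 and 3. All 3 Ube3am-/p+ mice were above the WT mice, which lay close together, and the log2 fold change was 0.32 (SE 0.09, edgeR adjusted p = 0.0632). After the correction it was 0.23 (SE 0.08, edgeR adjusted p = 0.152), still without overlap. Gsg1l, whose protein dampens AMPA receptor currents, was at 22.97, 22.9 and 25.4 CPM in WT mice 1, 2 and 3 and 29.1, 31.7 and 28.7 CPM in Ube3am-/p+ mice 1, 2 and 3. It was higher without overlap, by a log2 fold change of 0.35 (SE 0.11, edgeR adjusted p = 0.0838), or 0.19 corrected. Cnih2 was at 621, 521 and 505 CPM in WT mice 1, 2 and 3 and 588, 587 and 733 CPM in Ube3am-/p+ mice 1, 2 and 3. The genotypes overlapped as counted, and the log2 fold change was 0.23 (SE 0.11, edgeR adjusted p = 0.201). After the correction it was -0.12 (SE 0.07, edgeR adjusted p = 0.479). The Ube3am-/p+ mice then lay below the WT mice without overlap, by a narrow gap between Ube3am-/p+ mouse 3 at 609 and WT mouse 2 at 610 CPM. Cacng2 and Cacng3 did not overlap between genotypes, with log2 fold changes of 0.23 and -0.20 (edgeR adjusted p = 0.175 and 0.195). After the correction Cacng2 was at 0.22 and Cacng3 at -0.32 (SE 0.09, edgeR adjusted p = 0.0803), the smallest adjusted p of the 35 genes in the corrected fit. Cacng8 had 204, 125 and 96.8 CPM in WT mice 1, 2 and 3 and 157, 191 and 224 CPM in Ube3am-/p+ mice 1, 2 and 3. These ranges overlapped, with a log2 fold change of 0.44 and an SE of 0.33, the widest of the listed genes apart from Grm8. Cacng4, Cacng5, Shisa6 and Shisa9 had log2 fold changes of -0.04, -0.04, -0.11 and -0.11, with an unadjusted p above 0.05.

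The fold changes of the listed genes followed the GC content of their transcripts. Across the 35 genes, the log2 fold change and GC content had a Spearman's rho of 0.873 and a Pearson's r of 0.868, beside a rho of 0.622 over 14201 genes; genes share the same 6 libraries and are not independent replicates. All 9 listed genes with less than 45% GC were lower, with a median log2 fold change of -0.29. In that range 85.4% of all genes were lower, with a median of -0.22. The 10 listed genes above 55% GC were all higher, with a median of 0.31, as were 86.6% of all genes, with a median of 0.21. Between these bounds 9 were lower and 7 higher. In single libraries, the same rho taken over the listed genes was -0.0507, -0.704 and -0.901 for WT mice 1 to 3, compared with 0.428, 0.663 and 0.847 for Ube3am-/p+ mice 1 to 3. After the correction the rho with the log2 fold change was 0.227 for the listed genes and 0.0171 for all genes. The correction removes what follows GC content or length in each library, and with 3 mice per genotype a genotype effect that followed GC content and a difference between libraries that did so cannot be told apart.

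**Figure D5:**
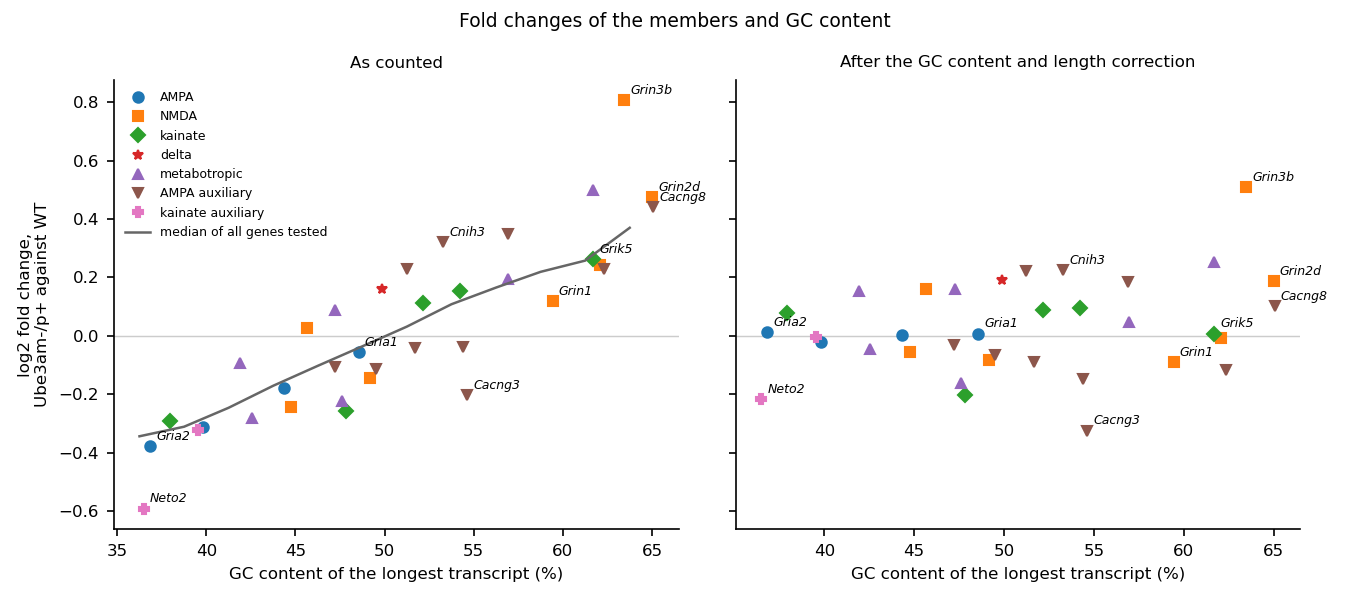
Log2 fold change of Ube3am-/p+ against WT mice, as counted on the left and after the correction on the right, over GC content (percent of bases in each gene's longest transcript). Each point is a listed gene with its family shown by marker, and the grey line is the median of all genes tested; as counted, the 9 genes below 45% GC lie below 0 and the 10 above 55% above 0.

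After the correction, the 5 genes with an unadjusted p below 0.05 were Neto2 and Cacng3, both lower, and Cnih3, Cacng2 and Grid1, all higher. Their corrected log2 fold changes were -0.22, -0.32, 0.23, 0.22 and 0.19, and none passed the adjustment over all genes.

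Other genes of the pathway were read in 2 lists. Of 9 genes for vesicular loading, uptake and synthesis of glutamate, 0 were called by edgeR and 2 by DESeq2. The shares over all genes were 2.01% and 4.94%. Of the 9, 3 had an unadjusted p below 0.05 (2 lower, 1 higher), beside 24.6% of all genes. The log2 fold change was negative in 8 of the 9 as counted and in 5 after the correction. The summed level of the 9 genes was 7419 to 7701 CPM in WT and 6855 to 7065 CPM in Ube3am-/p+ mice. Of 30 genes for receptor scaffolds and trafficking, 0 were called by edgeR and 2 by DESeq2, beside the same shares. Of the 30, 8 had an unadjusted p below 0.05 (2 lower, 6 higher), beside the 24.6% of all genes. The median log2 fold changes were -0.13 and 0.09, and -0.01 and 0.02 after the correction.

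Markers of 13 cell types and neighbouring regions were detected, with none at 0 in all libraries. All 5 neuronal markers were present, at a summed 4167 to 4391 CPM in WT and 3820 to 3990 CPM in Ube3am-/p+ mice. Single neuronal markers went both ways, 2 lower and 3 higher as counted, and 1 lower and 4 higher after the correction. Dentate granule cell (5), CA1 (4), CA2 and CA3 pyramidal cell (6), interneuron (8) and astrocyte (5) markers overlapped between genotypes in their sums. The sum of 5 oligodendrocyte markers was 7534 to 7653 CPM in WT and 6229 to 7146 CPM in Ube3am-/p+ mice, that of 3 oligodendrocyte precursor markers 169 to 176 and 144 to 155 CPM, and that of 4 microglial markers 218 to 236 and 196 to 209.6 CPM. As counted, 3 of the 5 oligodendrocyte, 3 of the 3 precursor and 3 of the 4 microglial markers were lower. After the correction 4, 3 and 4 of them were lower. The 5 striatal markers summed to 48.1 to 60.8 CPM in WT and 68.9 to 80.9 CPM in Ube3am-/p+ mice. All 5 were higher as counted and after the correction, with median log2 fold changes of 0.43 and 0.20. Choroid plexus markers (4) varied within both genotypes, from 95.0 to 2137 CPM in WT and from 99.2 to 2223 CPM in Ube3am-/p+ mice. Thalamic (4) and meningeal (6) marker sums overlapped. Of all 13 lists, edgeR called 1 marker each in the oligodendrocyte precursor, thalamic, striatal and meningeal lists, beside 2.01% of all genes. Corrected, these 4 lists had 0 calls and the CA1 and oligodendrocyte lists had 1 each, beside 0.542%. DESeq2 called 1 or 2 markers in 10 of the lists, beside 4.94% of all genes, and 0 in the astrocyte, CA2 and CA3, and choroid plexus lists. The part of these differences in the values of the receptor genes was not tested.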

How the data were processed

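The authors deposited raw counts per gene symbol for each mouse, without normalization or pooling. Their processing notes name STAR 2.7.4a, HTSeq and mm10; the annotation and strand setting are not given in the sources used here. The 5 summary lines of each table were dropped; reads on no gene were 54.1% to 55.0% of the reads listed, and gene counts 7293272 to 11314409 per library.

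Counts were filtered by filterByExpr, scaled by TMM and tested with edgeR 4.0.16 (R 4.3.3) by the quasi-likelihood F test, two-sided, with genotype as the only factor and Benjamini-Hochberg adjustment over 14445 genes (biological coefficient of variation 0.102). The thresholds were 0.05 for the adjusted p and 1.2 for the fold change. Overlap between genotypes was judged on TMM-scaled CPM. Lengths, positions and GC content came from GENCODE M21 (GRCm38, the same assembly as mm10). The correction used offsets per library from natural splines (5 degrees of freedom each) of GC content and log2 length of the longest transcript, on 14201 genes. Shares were compared by exact permutation. The edgeR fits (plain, corrected and with the replicate number as a block) and DESeq2 were tried on simulated counts. In these counts no library had a relation to GC content or length of its own. They therefore cannot show how well the correction removes one. The comparison of shares was not simulated. Alternatives were DESeq2 1.42.0, other scaling, other filters, the replicate number as a block, no fold threshold, an unadjusted p, other lengths and leaving out each mouse. Deviations from the genotype mean correlated at -0.330, -0.180 and -0.327 between mice with the same number in the labels. These deviations also hold each library's relation to GC content, so they cannot decide whether the numbers pair the mice.

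The listed genes, pathway lists and marker lists were chosen with earlier results of these data known. Values per mouse are given for called genes, the 10 smallest p-values and the highest level per family.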

Additional observations from a re-analysis of the deposited data

How the results depend on the processing

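The number of the 35 genes called was 2 as reported (2.01% of all genes), 5 with DESeq2 (4.94%) and 1 with upper-quartile factors (1.88%). It was 7 without a filter on low counts (6.10%), 11 at an unadjusted p with the fold threshold (19.6%), and 0 when corrected for GC content and length (0.542%). The number was 3 with at least 10 counts in every library (2.87%), 2 with library size only (2.06%) or DESeq2 size factors (2.76%), and 2 without a fold threshold (290 of all genes). Leaving out 1 mouse gave 0 to 14: 14 without WT mouse 1, 8 without Ube3am-/p+ mouse 1, and 0 without WT mouse 2 or 3 or Ube3am-/p+ mouse 2 or 3. Over all genes the same omissions gave 0 to 2582 calls against 290, and edgeR's unadjusted p below 0.05 gave 2075 to 4761. The cause was not tested. The count at an unadjusted p, 17, became 5 with the correction, 4 with the block and the correction, and 10 to 21 without 1 mouse. Over all genes these counts were 3560 of 14445 as counted, 2069 of 14201 with the correction and 1590 of 14201 with both. Without 1 mouse, 14536 to 14646 genes were tested. The median log2 fold change of -0.04 became 0.0076 with the correction, 0.0068 with both, and -0.019 to 0.0361 without 1 mouse. The 19 genes without overlap became 10 with the correction, beside 17.8% of all genes.

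With the replicate number as a block, 0 listed genes and 0 of all genes were called by edgeR (13 and 2422 at an unadjusted p below 0.05). With the block and the correction 0 listed genes and 1 of all genes were called. Among the libraries of the other genotype, 0 of 6 libraries correlated best with the one of their own number. Ube3a was at -0.57 (edgeR adjusted p = 0.216) with the block, -0.19 with the correction and -0.18 with both, and -0.73 to -0.48 without 1 mouse. Its call was lost without WT mouse 2 or 3 or Ube3am-/p+ mouse 2 or 3, as were the calls of Neto2 and Gria2, whose edgeR adjusted p then reached 0.255 and 0.272 at log2 fold changes of -0.55 to -0.51 and -0.36 to -0.31. Gria2 was also not called with upper-quartile factors (edgeR adjusted p = 0.0540).

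With the correction 8 of 35 log2 fold changes took another sign. Among the 10 genes with the smallest p these were Gria2 (0.0127, and 0.0126 with the block) and Grik2 (0.0797 and 0.0764), and the others were Gria1, Gria4, Grin1, Grin2c, Cnih2 and Grm8. The difference in share became 0.0913 points for Gria2, -0.892 for Grik5 and -1.05 for Grm5 with corrected counts. For Grin2b it was 2.37 with coding length, 2.61 without length, 2.83 with corrected counts, and -0.426 to 1.246 without 1 mouse, negative without WT mouse 3 or Ube3am-/p+ mouse 1 or 2. Depth limits Grin3b and Grm8, with 175 and 261 counts.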
